A study of Homo sapiens with 9 samples.

Results

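TRIM genes, whose products carry a RING finger, B-boxes and a coiled coil and mostly act as ubiquitin ligases, were described across 3 genotypes of the small cell lung cancer line DMS273. The members are the rows of the deposited count table whose gene name is TRIM followed by a number only. Of 67140 genes in the table, 115 rows matched, and they carry 66 symbols. The 49 rows outside the primary annotation held 0 counts, so each of the 59 symbols with any count rests on 1 row. The low-count filter kept 50 members for testing. It dropped 9 with few counts, namely TRIM29, TRIM43, TRIM49, TRIM55, TRIM58, TRIM60, TRIM61, TRIM63 and TRIM72. No count was found in any library for the other 7, TRIM40, TRIM42, TRIM48, TRIM50, TRIM51, TRIM64 and TRIM77.

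DMS273 is an established human small cell lung cancer cell line, a tumour type that often carries neuroendocrine features. Cells were given a scrambled guide (labelled WT, called control here), a guide that disrupts ATG7 (ATG7 KO), or guides that disrupt ATG7 and SQSTM1 together (ATG7/SQSTM1 KO), each from a CRISPRv2 vector. There are 3 libraries of rRNA-depleted total RNA per group. The labels do not say whether a knockout line is 1 clone or a pool, or whether the libraries of a group are separate cultures. If they are repeats of 1 culture, the p-values below reflect technical spread alone. ATG7 encodes the enzyme that activates the conjugation systems of autophagy, and SQSTM1 encodes p62, a receptor that autophagy degrades along with its ubiquitinated cargo.

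Library totals ran from 28675576 to 34222098 counts. TRIM members took 0.184% to 0.186% of the counts in the control libraries, 0.194% to 0.196% in ATG7 KO and 0.177% to 0.181% in ATG7/SQSTM1 KO. ATG7 mRNA, the check of the labels, fell in both knockouts against control (log2 change -1.22 and -1.35, edgeR adjusted p 2.69e-11 and 2.46e-11). SQSTM1 mRNA had a log2 change of -2.86 in ATG7/SQSTM1 KO (adjusted p 1.37e-22 in edgeR), while its change in ATG7 KO was 0.05 (adjusted p 0.156). A guide can disrupt a protein while leaving its mRNA, so these levels show that each label goes with a lower transcript and nothing about residual protein.

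The family divides by the part that follows the RING, B-box and coiled coil. A PRY-SPRY domain is the commonest ending and is found in most members that respond to interferon, several of which restrict viruses or act on RNA-sensing pathways such as RIG-I signalling. COS-box members with a fibronectin repeat and a SPRY domain bind microtubules, and several work in neurons, where TRIM9 and TRIM67 act in netrin signalling and axon branching. PHD-bromodomain members, the TIF1 group, act on chromatin. Ubiquitin ligases of this family also meet autophagy, since several bind p62 or regulate autophagy factors.

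Interferon-stimulated genes often hold 2 copies of GAAA separated by 2 bases, the core of the interferon-stimulated response element, near the start site. Both strands of the RefSeq promoter windows (GRCh38.p14, 250 bases before to 50 after a start) were searched for it. Of 34943 windows of this length in the table, 3.57% held the core. Windows were present for 40 of the 50 tested members. The core was found in 6 of the 11 windows of interferon-induced members. Counted by member, it was found in 6 of the 10 interferon-induced members with a window, and in 3 of the 30 tested members with a window that are off that list. TRIM22 has no window in the table. The stretches below are 5′ to 3′ on the strand of the gene, with every match in capitals, and are printed to show where the core lies in the members that have it. A core on the opposite strand reads as TTTC, 2 bases and TTTC, and TRIM21 and TRIM26 each have 2 overlapping matches. Such a match describes the letters of the window and is not evidence of a bound site.
TRIM5 (chr11:5685077-5685116, minus strand): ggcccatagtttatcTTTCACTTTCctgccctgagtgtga
TRIM14 (chr9:98119224-98119263, minus strand): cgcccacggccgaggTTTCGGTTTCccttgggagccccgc
TRIM21 (chr11:4393655-4393700, minus strand): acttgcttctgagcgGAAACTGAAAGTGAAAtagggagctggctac
TRIM26 (chr6:30213570-30213615, minus strand): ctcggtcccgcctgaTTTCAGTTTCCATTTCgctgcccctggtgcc
TRIM34 (chr11:5624896-5624935, plus strand): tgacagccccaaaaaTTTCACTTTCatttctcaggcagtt
TRIM69 (chr15:44736451-44736490, plus strand): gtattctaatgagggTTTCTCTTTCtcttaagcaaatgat

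The 3 members off the interferon list with a match were TRIM2, a neural member, TRIM16 and TRIM44, which both lack a RING finger. They are printed because the core is present in them as well.
TRIM2 (chr4:153151931-153151970, plus strand): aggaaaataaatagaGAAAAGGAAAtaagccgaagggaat
TRIM16 (chr17:15683007-15683046, minus strand): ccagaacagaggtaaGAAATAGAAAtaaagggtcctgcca
TRIM44 (chr11:35662725-35662764, plus strand): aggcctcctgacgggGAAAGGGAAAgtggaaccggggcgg

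Levels below are CPM, counts scaled to library size with TMM factors, and levels are compared between genes only per kilobase of annotated exon. In the control libraries TRIM28, the KAP1 corepressor of zinc finger repressors, was the most abundant tested member at 115 ± 2.66 CPM per kb (SD, n = 3). It alone took 24.2% to 26.2% of all member counts in a library. TRIM25, the ligase known for ubiquitinating RIG-I, followed at 13.8 ± 0.186 CPM per kb, and TRIM37, a MATH-domain ligase, stood at 13.7 ± 0.34. TRIM26 and TRIM27 came next at 13 ± 0.404 and 12.8 ± 0.289 CPM per kb. Neither TRIM25 and TRIM37 nor TRIM26 and TRIM27 differed by more than their spread. With coding length in place of exon length, an alternative chosen after the data were seen, TRIM28 still led, 3 of these 5 members stayed among the highest 5, and TRIM44 and TRIM9 replaced TRIM37 and TRIM26. TRIM22 (0.325 ± 0.0832 CPM per kb) and TRIM67 (1.13 ± 0.0408) were both far down the order in control.

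**Figure D1:**
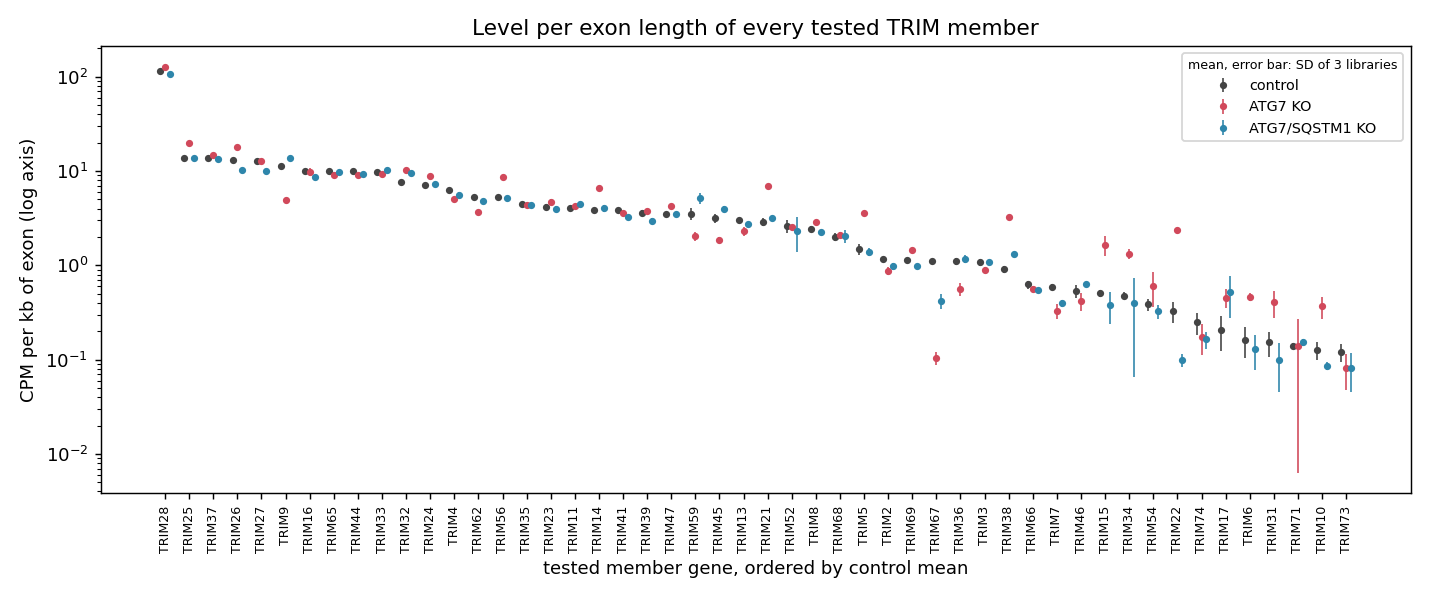
Level of each of the 50 tested members in CPM per kb of annotated exon on a log axis, ordered by the control mean, with points for the mean of each genotype and error bars for the SD of 3 libraries. TRIM28 stands at 115 in control with the next member at 13.8, and TRIM67 and TRIM22 are among the members whose genotype means lie farthest apart.

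In ATG7 KO against control, 22 of the 50 tested members rose and 13 fell at an edgeR adjusted p under 0.05, or 70% called. The background is high, since 56.7% of all 18847 tested genes were called in that comparison, 28.4% higher and 28.3% lower. The members' median log2 change was 0.07, beside -0.02 for all tested genes. At least 2-fold, 9 called members were higher and 2 lower, and the share of all tested genes at this size was not computed. For scale, the netrin receptor gene DCC at a log2 change of 1.00 ranked 888 from the highest of all tested genes. TRIM36 at -0.99 ranked 1745 from the lowest, so falls near this size were more common than such rises over all genes. In ATG7/SQSTM1 KO against control 7 members rose and 13 fell (40% called), beside 38.6% of all tested genes, 19% higher and 19.6% lower, so the members' share was near the background. The median was -0.09 there, against -0.01 for all genes. In ATG7/SQSTM1 KO against ATG7 KO 11 members rose and 25 fell (72% called), beside 60.5% of all genes, 30.5% higher and 29.9% lower, with medians of -0.15 for the members and 0.02 for all genes. The 3 comparisons share libraries in pairs, so their counts are not independent of each other.

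**Figure D2:**
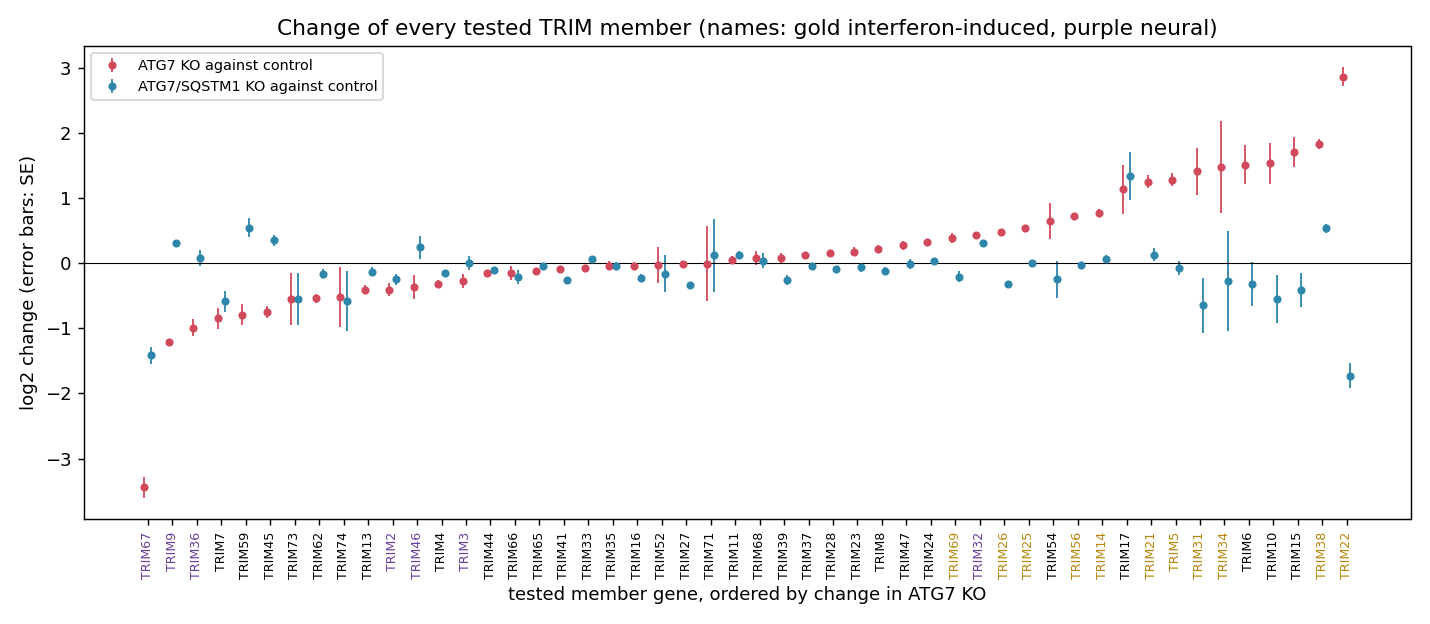
Log2 change of each of the 50 tested members in ATG7 KO and in ATG7/SQSTM1 KO against control, ordered by the first, with error bars for the SE of the edgeR fit. TRIM22 is at the upper end with 2.86 in ATG7 KO and -1.73 in ATG7/SQSTM1 KO, and TRIM67 at the lower end with -3.44 and -1.41.

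The interferon-induced list holds 11 tested members, of which 10 rose in ATG7 KO against control, with a median log2 change of 1.25. The remaining one, TRIM34, was not called. For ATG7/SQSTM1 KO against control, 1 rose (TRIM38), 3 fell (TRIM22, TRIM26 and TRIM69) and 7 were not called, with a median of -0.08. Against ATG7 KO, 10 of the 11 fell in ATG7/SQSTM1 KO, again all but TRIM34, with a median of -1.13. Beside 56.7%, 38.6% and 60.5% of all tested genes, 90.9%, 36.4% and 90.9% of these members were called, in that order of comparisons. Their summed level was 301 to 305 CPM in the control libraries, 491 to 503 in ATG7 KO and 286 to 300 in ATG7/SQSTM1 KO. RNA from bulk cultures was measured, so a different share of cells that express a gene and a different amount of RNA per cell cannot be told apart.

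TRIM22, a PRY-SPRY member known as an interferon-induced restriction factor, showed the widest range (ENSG00000132274, chr11:5689689-5737089, plus strand). TRIM22 shares 642 bases of exon with OR56B1 on the same strand, so its count is uncertain to that extent. Its level was 2.5, 1.52 and 1.86 CPM in the control libraries, 14.4, 14.8 and 13.6 in ATG7 KO, and 0.496, 0.618 and 0.669 in ATG7/SQSTM1 KO. None of the 3 groups overlapped, and the order was ATG7 KO, control, ATG7/SQSTM1 KO. TRIM22 rose 7.24-fold in ATG7 KO (log2 change 2.86, SE 0.146, edgeR adjusted p 3.82e-13). It fell to 3.31-fold below control in ATG7/SQSTM1 KO (log2 change -1.73, SE 0.195, edgeR adjusted p 3.77e-07), and it was 24-fold lower there than in ATG7 KO (log2 change -4.58, SE 0.172, edgeR adjusted p 2.32e-15).

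TRIM38, which is known to restrain innate immune signalling, had 7.9, 9.27 and 8.45 CPM in control, 29.6, 29.6 and 31.8 in ATG7 KO and 12, 12.4 and 12.6 in ATG7/SQSTM1 KO. Here too the groups did not overlap, but ATG7/SQSTM1 KO lay above control. The log2 change against control was 1.83 in ATG7 KO (SE 0.0709, edgeR adjusted p 3.87e-15), against 0.53 in ATG7/SQSTM1 KO (SE 0.074, edgeR adjusted p 6.21e-06). The direct difference between both knockouts was -1.30 (SE 0.0682, edgeR adjusted p 5.62e-13). TRIM38 was thus the only listed interferon-induced member called higher than control in both knockouts.

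TRIM5, the retroviral capsid-binding restriction factor, had 6.04, 7.55 and 7.68 CPM in control, 17.4, 17.3 and 16.9 in ATG7 KO and 5.98, 7.31 and 6.91 in ATG7/SQSTM1 KO. TRIM21, a cytosolic receptor for antibodies bound to pathogens, had 5.34, 6.17 and 5.22 CPM, then 13.6, 12.7 and 13.5, then 5.66, 6.32 and 6.28. In both genes the ATG7 KO libraries stood above all others and the other groups overlapped. TRIM5 shares 382 bases of exon with another gene on its strand, so its count is uncertain to that extent. TRIM5 rose by 1.28 on the log2 scale in ATG7 KO (SE 0.0965, edgeR adjusted p 2.5e-10), and its change in ATG7/SQSTM1 KO was -0.08 with a 95% interval of -0.32 to 0.17. For TRIM21 the rise was 1.25 (SE 0.0958, edgeR adjusted p 3.1e-10) and the change in ATG7/SQSTM1 KO 0.13, with an interval of -0.12 to 0.37.

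TRIM25 had 129, 133 and 130 CPM in control, 191, 194 and 185 in ATG7 KO and 135, 132 and 128 in ATG7/SQSTM1 KO. The same layout held, with ATG7 KO alone apart. TRIM25 rose 1.45-fold (log2 change 0.54, SE 0.0307, edgeR adjusted p 2.31e-12), and its log2 change in ATG7/SQSTM1 KO was 0.01 with an interval of -0.07 to 0.08. TRIM14, an adaptor in RNA sensing, and TRIM56, a ligase with antiviral activity, rose by 0.76 and 0.72 on the log2 scale in ATG7 KO (edgeR adjusted p 7.52e-10 and 3.4e-13). Their changes in ATG7/SQSTM1 KO were 0.06 and -0.03 and were not called.

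TRIM26 had 58.4, 54.9 and 57.2 CPM in control, 79.3, 81.1 and 78 in ATG7 KO and 46.4, 45.3 and 44.6 in ATG7/SQSTM1 KO. All 3 groups were apart, in the same order as for TRIM22. It rose by 0.48 on the log2 scale in ATG7 KO (SE 0.0372, edgeR adjusted p 3.59e-10), and its change in ATG7/SQSTM1 KO was -0.32 (SE 0.0383, edgeR adjusted p 7.19e-07). TRIM69 rose by 0.38 in ATG7 KO (edgeR adjusted p 0.000195). Its fall in ATG7/SQSTM1 KO (log2 change -0.21, edgeR adjusted p 0.0416) was lost in 9 of the 14 other settings tried, among them without control replicate 1, 2 or 3 (-0.19, -0.20 and -0.22) and without ATG7/SQSTM1 KO replicate 1 or 3 (-0.16 and -0.22).

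TRIM31 was a low-level member with 0.641, 0.62 and 0.352 CPM in control, 1.91, 1.38 and 1.02 in ATG7 KO and 0.146, 0.515 and 0.382 in ATG7/SQSTM1 KO. Its ATG7 KO libraries lay above all others, and it rose by 1.41 on the log2 scale (SE 0.357, edgeR adjusted p 0.00204). TRIM34 had 1.4, 1.21 and 1.25 CPM in control, 3.21, 3.45 and 4.05 in ATG7 KO and 0.0583, 1.78 and 1.4 in ATG7/SQSTM1 KO. Its ATG7 KO libraries stood above control without overlap, yet the change of 1.47 was not called (SE 0.706, edgeR adjusted p 0.126). ATG7/SQSTM1 KO replicate 1 was far below its group. The annotated readthrough gene TRIM6-TRIM34 shares 2233 bases of exon with TRIM34 and had 23 counts in that library, 7 in ATG7 KO replicate 2 and 0 in the others, so reads of this locus may have been split and the TRIM34 value is uncertain. In a fit of the 6 control and ATG7 KO libraries the TRIM34 change was 1.47 with an edgeR adjusted p of 1.48e-06. Without ATG7/SQSTM1 KO replicate 1 its difference between the knockouts was -1.17 (edgeR adjusted p 9.04e-05), against -1.75 (adjusted p 0.0786) with it.

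**Figure D3:**
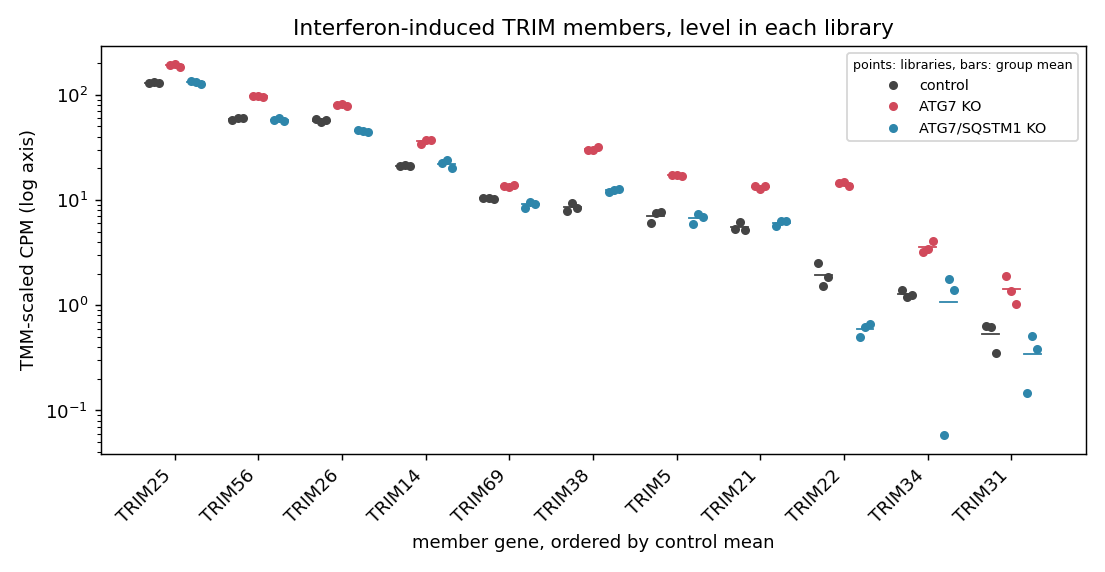
TMM-scaled CPM of the 11 interferon-induced members in each of the 9 libraries on a log axis, with points for libraries and bars for group means. ATG7 KO libraries lie above the control libraries for all 11, TRIM22 falls below control in ATG7/SQSTM1 KO, and the low point of TRIM34 is ATG7/SQSTM1 KO replicate 1 at 0.0583 CPM. Of all 50 tested members 36 did not overlap between control and ATG7 KO in either direction, and the share over all genes was not computed.

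RNA-sensing and interferon-signalling partners of these ligases mostly moved with them in the comparisons that include ATG7 KO. Of 14 tested partners 13 rose in ATG7 KO against control, all but MAVS (median log2 change 1.07), beside 28.4% of all tested genes. DDX58, which encodes RIG-I, changed by 2.36 and the ubiquitin-like modifier ISG15 by 2.97. The rises of RNF135 (0.19) and IRF3 (0.13) were near the threshold (edgeR adjusted p 0.0458 and 0.0422). IRF7, also on this list, was filtered out, with 3, 2 and 4 counts in control and 3, 0 and 3 in ATG7 KO. In ATG7/SQSTM1 KO against control 5 partners rose and 1 fell (median 0.10, 42.9% called beside 38.6% of all tested genes). There 1 interferon-induced member rose and 3 fell. Against ATG7 KO 1 partner rose and 11 fell (median -0.96, 85.7% called beside 60.5% of all tested genes). ISG15 had 13, 9.99 and 11.4 CPM in control, 91.2, 91.4 and 88.3 in ATG7 KO and 15.7, 15.4 and 15.7 in ATG7/SQSTM1 KO. PML, an RBCC relative named apart from the family and itself induced by interferon, rose by 0.90 in ATG7 KO (edgeR adjusted p 2.61e-13) but had a change of 0.04 in ATG7/SQSTM1 KO that was not called. Among 7 tested RBCC relatives, 5 rose and 1 fell in ATG7 KO, or 85.7% called beside 56.7% of all tested genes. Changes of the RBCC relatives in ATG7/SQSTM1 KO against control ran from -0.04 to 0.46.

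Blood cells also express many interferon-induced genes, so 8 blood markers were read in the same libraries. Their summed level was 5.25 to 5.96 CPM in control, 9.48 to 10.5 in ATG7 KO and 3.36 to 4.29 in ATG7/SQSTM1 KO. The T-cell gene CD3E, the lysozyme gene LYZ and the globin gene HBB had 0 counts in all 9 libraries. Of the 4 tested blood markers 3 rose in ATG7 KO, PTPRC (log2 change 3.06), CD14 (1.825) and CD68 (1.34). The other, ITGAM, fell (-0.95, edgeR adjusted p 0.000518), so 100% were called beside 56.7% of all tested genes. In ATG7/SQSTM1 KO 2 rose and 2 fell against control, and 4 fell against ATG7 KO. That is 100% called in each, beside 38.6% and 60.5% of all tested genes. PTPRC had 2, 6 or 8 counts a control library and 41 to 48 counts an ATG7 KO library. The part of these markers in the result was not tested.

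The 7 neural members went mostly the other way. In ATG7 KO against control 5 fell and 1 rose, with a median log2 change of -0.41. For ATG7/SQSTM1 KO against control, 2 rose, 2 fell and 3 were not called (median 0.08), and against ATG7 KO 5 rose and 1 fell (median 0.60). Those 2 falls against control became 1, and that 1 fall against ATG7 KO became 0, in 6 of 14 settings each, with TRIM2 and TRIM32 the members that lost the call. Beside 56.7%, 38.6% and 60.5% of all tested genes, 85.7%, 57.1% and 85.7% of the neural members were called. Their summed level was 163 to 173 CPM in control, 102 to 105 in ATG7 KO and 187 to 193 in ATG7/SQSTM1 KO, so the sum of the last group lay above that of control. TRIM9 was the largest part of this sum in each group, and its mean was 100.7 CPM in control, 43.8 in ATG7 KO and 124 in ATG7/SQSTM1 KO, while TRIM67 and TRIM2 had lower means in ATG7/SQSTM1 KO than in control.

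TRIM67, a COS-box member of developing brain that acts in netrin signalling, had the largest fall of any tested member in ATG7 KO (ENSG00000119283, chr1:231162112-231221556, plus strand). Its level was 10.9, 10.3 and 10.2 CPM in control, 1.06, 1.04 and 0.798 in ATG7 KO and 3.67, 4.77 and 3.38 in ATG7/SQSTM1 KO. The groups did not overlap, and ATG7/SQSTM1 KO stood between the other groups. TRIM67 was 10.9-fold lower than control in ATG7 KO (log2 change -3.44, SE 0.157, edgeR adjusted p 5.7e-14). It was 2.67-fold lower than control in ATG7/SQSTM1 KO (log2 change -1.41, SE 0.133, edgeR adjusted p 2.7e-08), and 4.07-fold higher there than in ATG7 KO (log2 change 2.03, SE 0.164, edgeR adjusted p 6.12e-10).

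TRIM9, the paralog of TRIM67 and a brain ligase that limits exocytosis and axon branching, came next after TRIM27 in the control order per exon length (11.3 ± 0.356 CPM per kb). It had 103, 97.2 and 102 CPM in control, 43.9, 43.8 and 43.5 in ATG7 KO and 123, 126 and 124 in ATG7/SQSTM1 KO. As with TRIM67 the groups were apart, but ATG7/SQSTM1 KO lay above control rather than below. TRIM9 was 2.3-fold lower than control in ATG7 KO (log2 change -1.20, SE 0.0354, edgeR adjusted p 3.77e-17) but 1.23-fold higher in ATG7/SQSTM1 KO (log2 change 0.30, SE 0.0335, edgeR adjusted p 2.93e-07).

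TRIM36, a microtubule-associated member, had 6.5, 6.41 and 7.49 CPM in control, 2.83, 3.72 and 3.7 in ATG7 KO and 7.99, 7 and 6.5 in ATG7/SQSTM1 KO. Only the ATG7 KO libraries stood apart. TRIM36 was 1.99-fold lower than control there (log2 change -0.99, SE 0.131, edgeR adjusted p 1.25e-06), and its change in ATG7/SQSTM1 KO was 0.08 with an interval of -0.23 to 0.38. TRIM46, which organises microtubules at the start of the axon, had 2.81, 2.07 and 2.43 CPM in control, 1.67, 1.64 and 2.36 in ATG7 KO and 2.77, 2.92 and 2.96 in ATG7/SQSTM1 KO. ATG7 KO replicate 3 overlapped the control libraries. Its log2 change of -0.36 in ATG7 KO was not called (edgeR adjusted p 0.103) and was -0.54 and called without ATG7 KO replicate 3 (edgeR adjusted p 0.0283). TRIM46 was higher in ATG7/SQSTM1 KO than in ATG7 KO by a log2 difference of 0.60 (edgeR adjusted p 0.00736). Of the 4 tested COS-box members with a fibronectin repeat, TRIM9, TRIM36, TRIM46 and TRIM67, 3 fell in ATG7 KO, all but TRIM46, and 4 of 4 were higher in ATG7/SQSTM1 KO than in ATG7 KO. Over all tested genes these shares were 28.3% and 30.5%.

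The NHL-repeat members of the neural list behaved unevenly. TRIM2, a ligase for neurofilament light chain, had 11.5, 10.8 and 10.5 CPM in control, 7.44, 8.99 and 8.36 in ATG7 KO and 10, 8.68 and 8.86 in ATG7/SQSTM1 KO, and its log2 change was -0.41 in ATG7 KO (edgeR adjusted p 0.000783). Its fall in ATG7/SQSTM1 KO (-0.25, edgeR adjusted p 0.035) was lost in 6 of 14 other settings, among them without control replicate 1 or 2 (-0.21 and -0.26) and without ATG7/SQSTM1 KO replicate 2 or 3 (-0.21 and -0.23). TRIM3, known at synapses, had a log2 change of -0.27 in ATG7 KO (edgeR adjusted p 0.0362) that was lost in 6 of 14 settings, among them without control replicate 1 or 2 (-0.20 and -0.25) and without ATG7 KO replicate 1 or 2 (-0.26 and -0.21).

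TRIM32, linked to neural differentiation and to muscle disease, was the exception among the neural members. It had 29.6, 28.2 and 28.9 CPM in control, 39, 38.5 and 39.4 in ATG7 KO and 37.9, 35.3 and 34.2 in ATG7/SQSTM1 KO. Both knockouts lay above control without overlap, at log2 changes of 0.43 and 0.31 (edgeR adjusted p 8.27e-08 and 1.94e-05). Its fall between the knockouts (-0.12) was lost in 6 of 14 settings, among them without ATG7 KO replicate 1 or 3 (both -0.12) and without ATG7/SQSTM1 KO replicate 2 or 3 (-0.12 and -0.10). TRIM71, an NHL-repeat member of stem cells that is off the neural list, had 0.546, 0.537 and 2.52 CPM in ATG7 KO. ATG7 KO replicate 3 was far above its group, and the log2 change against control was -0.01 with it (edgeR adjusted p 0.994), beside -1.15 without it (adjusted p 0.00215).

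**Figure D4:**
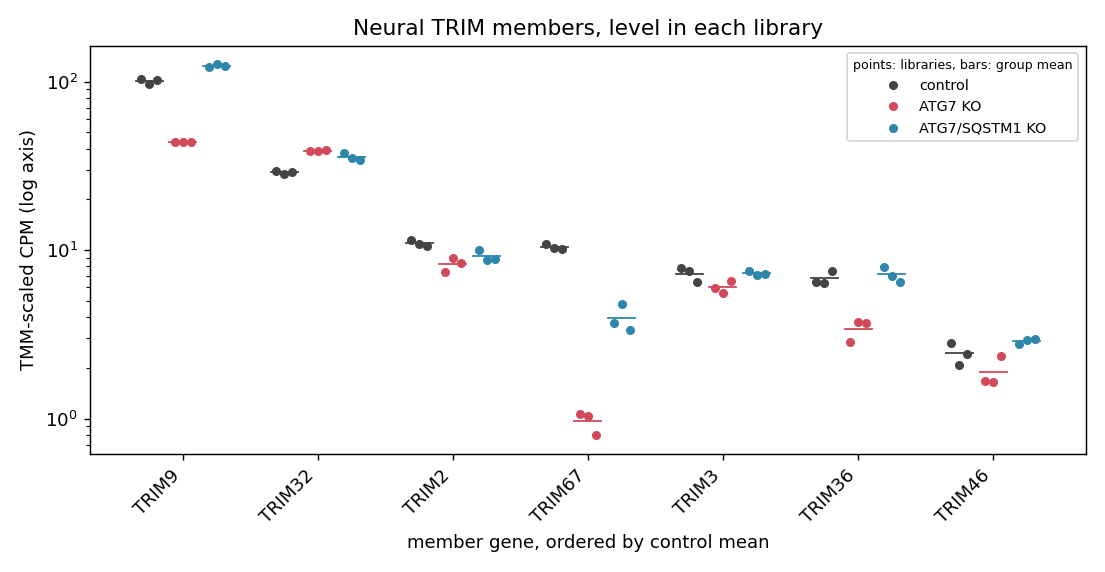
TMM-scaled CPM of the 7 neural members in each of the 9 libraries on a log axis, with points for libraries and bars for group means. TRIM9, TRIM36 and TRIM67 are lowest in ATG7 KO without overlap, TRIM67 stays below control in ATG7/SQSTM1 KO, and TRIM32 is above control in both knockouts.

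Partners in netrin signalling and exocytosis did not share 1 direction. Of 11 tested, 5 rose and 6 fell in ATG7 KO, 3 rose and 2 fell in ATG7/SQSTM1 KO against control, and 6 rose and 3 fell between the knockouts. Beside 56.7%, 38.6% and 60.5% of all tested genes, 100%, 45.5% and 81.8% of these partners were called. SNAP25, the synaptic fusion protein that TRIM9 binds, had 9.73, 8.72 and 10.5 CPM in control, 2.53, 1.61 and 2.3 in ATG7 KO and 9.24, 9.82 and 9.14 in ATG7/SQSTM1 KO. Its log2 change was -2.17 in ATG7 KO (edgeR adjusted p 9.44e-12), against -0.04 in ATG7/SQSTM1 KO (adjusted p 0.829). The netrin receptor gene DCC rose by 1.00 and the ligand gene NTN1 had a change of -1.45 in ATG7 KO. VASP, an actin regulator and a known substrate of TRIM9, rose by 1.02.

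Neuroendocrine markers moved with the neural members. All 9 tested of 10 fell in ATG7 KO, 4 rose and 3 fell in ATG7/SQSTM1 KO against control, and 9 of 9 were higher in ATG7/SQSTM1 KO than in ATG7 KO. Beside 56.7%, 38.6% and 60.5% of all tested genes, 100%, 77.8% and 100% of these markers were called. Their summed level was 807 to 841 CPM in control, 492 to 500 in ATG7 KO and 885 to 920 in ATG7/SQSTM1 KO. UCHL1 was the largest part of this sum, at a mean of 391, 340 and 448 CPM in that order. The log2 change of UCHL1 in ATG7 KO was only -0.20. POU2F3, the listed gene that was filtered out, went the other way, with 2, 0 and 0 counts in control and 6, 3 and 5 in ATG7 KO. Fibroblast markers, by contrast, summed to 182 to 197, 661 to 700 and 331 to 353 CPM. Of 7 tested fibroblast markers 5 rose in ATG7 KO (71.4% called), while PDGFRA (-0.04) and PDGFRB (0.36) were not called. In ATG7/SQSTM1 KO 6 rose against control, and against ATG7 KO 2 rose and 4 fell (85.7% called in each). The part of these markers in the neural members' result was not tested.

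In the TIF1 group, TRIM24 and TRIM28 rose in ATG7 KO and the other 2 members were not called. TRIM28 had 452, 463 and 474 CPM in control, 524, 508 and 510 in ATG7 KO and 454, 432 and 425 in ATG7/SQSTM1 KO. ATG7 KO stood apart from the rest, though by only 1.11-fold (log2 change 0.15, SE 0.0276, edgeR adjusted p 8.64e-05). Its fall in ATG7/SQSTM1 KO (-0.08, edgeR adjusted p 0.0206) was lost in 5 of 14 settings, among them without control replicate 2 or 3 (-0.08 and -0.07) and without ATG7/SQSTM1 KO replicate 2 or 3 (-0.08 and -0.07). TRIM24, a nuclear receptor coregulator, rose by 0.32 in ATG7 KO (edgeR adjusted p 6.39e-08), whereas its change in ATG7/SQSTM1 KO was 0.03 and not called. TRIM33, a ligase of SMAD signalling, had a change of -0.08 in ATG7 KO (edgeR adjusted p 0.051) that was called in 3 of 14 other settings, such as library totals (-0.12, adjusted p 0.00366), and TRIM66 was not called in any comparison. Of 9 KAP1 complex partners, 3 rose and 3 fell in ATG7 KO, or 66.7% called beside 56.7% of all tested genes. SETDB1, the histone methyltransferase that TRIM28 recruits, had changes of -0.44 in ATG7 KO, then -0.34 in ATG7/SQSTM1 KO (edgeR adjusted p 6.28e-13 and 2.18e-10).

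Members linked to autophagy, 8 of 11 tested, include TRIM5, TRIM21, TRIM28 and TRIM32, described above. As a list 6 rose and 1 fell in ATG7 KO, 2 rose and 2 fell in ATG7/SQSTM1 KO against control, and 1 rose and 6 fell between the knockouts. Beside 56.7%, 38.6% and 60.5% of all tested genes, 87.5%, 50% and 87.5% of these members were called. TRIM13, an endoplasmic reticulum ligase, was the one that fell in ATG7 KO (log2 change -0.41, edgeR adjusted p 4.01e-05) but was not called in ATG7/SQSTM1 KO (-0.14). TRIM13 shares 1086 bases of exon with KCNRG on the same strand, so its count is uncertain to that extent. TRIM16, which binds galectins at damaged membranes and shares 1327 bases of exon with another gene on its strand, was not called in ATG7 KO (-0.04). Its change was -0.22 in ATG7/SQSTM1 KO (edgeR adjusted p 0.0109), a call lost without control replicate 1 (-0.17) or ATG7/SQSTM1 KO replicate 2 (-0.20). TRIM23, which carries an ARF domain, had a change of 0.18 in ATG7 KO (edgeR adjusted p 0.0327) that was lost with library totals (0.14) and without control replicate 2 (0.13), ATG7 KO replicate 1 (0.17) or ATG7 KO replicate 2 (0.14).

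TRIM17 was the only member called at least 2-fold higher in ATG7/SQSTM1 KO against control. It had 1.07, 0.586 and 0.544 CPM in control, 1.26, 1.61 and 1.98 in ATG7 KO and 1.9, 0.961 and 2.71 in ATG7/SQSTM1 KO, so the last group overlapped control. Its log2 changes were 1.13 and 1.33 (edgeR adjusted p 0.0186 and 0.0105). The first call was lost without control replicate 2 or 3 (1.00 and 0.95) or ATG7 KO replicate 2 or 3 (1.14 and 0.97), and the second without control replicate 2 or 3 (1.20 and 1.16). Of the 4 muscle members only TRIM54 was tested, at 1.25, 0.999 and 0.961 CPM in control and 1.26, 2.48 and 1.31 in ATG7 KO. Its call in ATG7 KO (0.65, edgeR adjusted p 0.0466) was lost in 9 of 14 settings, among them without control replicate 2 or 3 (0.60 and 0.58) and without ATG7 KO replicate 2 (0.27).

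Outside both lists 32 members were tested. In ATG7 KO against control 11 rose and 8 fell (median log2 change -0.02), in ATG7/SQSTM1 KO 4 rose and 8 fell (-0.13), and between the knockouts 6 rose and 14 fell (-0.07). The shares called were 59.4%, 37.5% and 62.5%, near the 56.7%, 38.6% and 60.5% of all tested genes. The PRY-SPRY members TRIM15 and TRIM10 were among the largest rises. TRIM15 had 1.4, 1.21 and 1.22 CPM in control, 3.55, 3.62 and 5.3 in ATG7 KO and 1.2, 0.549 and 1.11 in ATG7/SQSTM1 KO. Its ATG7 KO libraries stood clear of the rest, with a log2 change of 1.70 (SE 0.233, edgeR adjusted p 2.83e-06). TRIM10 rose by 1.53 (edgeR adjusted p 0.000227), and TRIM6, named after its value was seen, by 1.51 (edgeR adjusted p 0.000186). None of these 3 was called in ATG7/SQSTM1 KO against control.

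TRIM45, TRIM59 and TRIM7 had the next largest falls in ATG7 KO after TRIM67, TRIM9 and TRIM36. TRIM45, which ends in a filamin repeat, had 14.5, 14.7 and 12 CPM in control, 7.61, 8.05 and 8.74 in ATG7 KO and 18.7, 16.1 and 17.6 in ATG7/SQSTM1 KO. Its groups were apart in the same order as for TRIM9, with changes of -0.75 and 0.35 against control (edgeR adjusted p 3.32e-07 and 0.00237). TRIM59, a membrane-anchored member, had changes of -0.79 and 0.55 (edgeR adjusted p 0.00406 and 0.0233), but 1561 bases of its exons overlap SMC4 on the other strand and 1138 overlap another gene on its own, so its reads cannot be assigned with certainty. The second call was lost in 4 of 14 settings, among them without ATG7/SQSTM1 KO replicate 1 (0.56, edgeR adjusted p 0.0604), with no low-count filter (adjusted p 0.0518) and in a fit of the 6 libraries compared (adjusted p 0.0566). TRIM7, a PRY-SPRY ligase, was lower than control in both knockouts, at 4.36, 4.07 and 4.64 CPM in control, 2.49, 1.95 and 2.84 in ATG7 KO and 3.06, 2.99 and 2.65 in ATG7/SQSTM1 KO (log2 changes -0.84 and -0.59, edgeR adjusted p 0.000114 and 0.0049).

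TRIM27, a widely expressed PRY-SPRY ligase, was called only in the comparisons with ATG7/SQSTM1 KO. It had 100.5, 105 and 101 CPM in control, 100.5, 104 and 99.1 in ATG7 KO and 82.4, 81.8 and 77.5 in ATG7/SQSTM1 KO. Control and ATG7 KO overlapped, and ATG7/SQSTM1 KO was below both. The log2 change against control was -0.01 in ATG7 KO (95% interval -0.10 to 0.07), against -0.34 in ATG7/SQSTM1 KO (edgeR adjusted p 1.29e-07), with a direct difference between the knockouts of -0.33 (edgeR adjusted p 6.72e-08). TRIM37 rose by 0.12 in ATG7 KO (edgeR adjusted p 0.00502), a call lost with library totals (0.08). TRIM73 and TRIM74 are near-identical copies of each other. Both are related to TRIM50 but have shorter annotated coding lengths (847 and 750 bases, against 1461). Neither was called in any comparison, and both are uncertain because reads can be split among copies.

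Position was examined after the values were seen. Tested members less than 100000 bases apart formed 5 groups in the GRCh38 annotation. On chromosome 6 (chr6:30102897-30213427), TRIM31, TRIM10, TRIM15 and TRIM26 lie within the major histocompatibility region, with TRIM40, which had 0 counts and was not tested, between TRIM31 and TRIM10. Of the tested members there, 4 of 4 rose in ATG7 KO, 1 fell in ATG7/SQSTM1 KO against control and 4 of 4 were lower than in ATG7 KO. Over all tested genes 28.4% rose in ATG7 KO and 29.9% were lower in ATG7/SQSTM1 KO than in ATG7 KO. TRIM26 and TRIM31 are on the interferon-induced list, so this run is not separate evidence. TRIM39, the next tested member beyond TRIM26, starts at base 30326479, outside the 100000-base limit. It was not called in ATG7 KO (0.08, edgeR adjusted p 0.359). On chromosome 11 (chr11:5596109-5938619), TRIM6, TRIM34, TRIM5 and TRIM22 form the other run of 4, of which 3 rose in ATG7 KO, 1 fell in ATG7/SQSTM1 KO against control and 3 were lower than in ATG7 KO, with TRIM34 not called. TRIM6 shares 1158 bases of exon with the readthrough gene TRIM6-TRIM34 on its strand, so its count is uncertain to that extent. Within that run the changes in ATG7/SQSTM1 KO against control ranged from -1.73 for TRIM22 to -0.08 for TRIM5. TRIM34, TRIM5 and TRIM22 are on the interferon-induced list, so that run is not separate evidence either. The other 3 groups, TRIM7 with TRIM41 and TRIM52, TRIM11 with TRIM17, and TRIM47 with TRIM65, held members called in different directions or not called in ATG7 KO.

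By structure, the 25 tested PRY-SPRY members had 13 rises and 4 falls in ATG7 KO, 3 and 9 in ATG7/SQSTM1 KO against control, and 2 and 16 between the knockouts. Over all tested genes 28.4% rose and 28.3% fell in ATG7 KO, 19% and 19.6% in ATG7/SQSTM1 KO against control, and 30.5% and 29.9% between the knockouts. The PRY-SPRY class includes most of the interferon-induced members, so it is not separate evidence. A second motif, the E-box written CAGATG or CAGCTG, which neuroendocrine bHLH factors are known to bind, was found in 29.8% of all promoter windows and in 7 of the 16 windows of neural members (43.8%). Counted by member, 4 of 7 neural members held it in at least 1 window, beside 17 of 40 tested members (42.5%). It was absent from the windows of TRIM67 and TRIM9 and present in those of TRIM32, the neural member that rose. The printed core occurs both in TRIM26, whose 3 groups were apart, and in TRIM5 and TRIM21, in which ATG7/SQSTM1 KO overlapped control. It was also found in TRIM2, TRIM16 and TRIM44, none of which rose in ATG7 KO, and not in the windows of TRIM25, TRIM31, TRIM38 and TRIM56.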

How the data were processed

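Total RNA of 9 libraries was sequenced. Reads were mapped to hg38 by HISAT2, per the submitters' processing notes, and the authors deposited whole-number counts per gene. No source used here names the counting program, its gene models or its strand option, although the library kit marks strand. Missing cells (362598) were taken as 0, and 1 row that is no gene and 1 unlabelled column of 0s were dropped. Testing used edgeR 4.0.16 in R 4.3.3 with DESeq2 1.42.0 as an alternative: filterByExpr (minimum count 10) kept 18847 genes, TMM factors were 0.977 to 1.01, and the quasi-likelihood model with robust dispersion used every library (6 residual degrees of freedom). P-values were Benjamini-Hochberg adjusted over all tested genes, with 0.05 as the threshold. Depth was 28675576 to 34222098 counts a library, which limits precision for members near 1 CPM. Within groups, counts differed by more than sampling noise (chi-square per degree of freedom 4.47 to 7.03). This does not show whether the libraries of a group are separate cultures. Each library was counted as 1 replicate. Exon lengths, coordinates and overlaps come from the GENCODE annotation of GRCh38, and promoter windows from RefSeq. The fit was tested on simulated counts. Named members are all tested ones of the interferon-induced, neural, TIF1, autophagy and muscle lists, the 4 largest called rises and falls of each comparison, and the 5 highest control levels per length. TRIM6, TRIM39, TRIM52, TRIM71, TRIM73, TRIM74 and members named only for a count, a motif or a position were added after their values were seen. The members and lists were chosen with earlier results of these data known. Other scalings, filters and fits, the replicate block and leaving out each library were tried.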

Additional observations from a re-analysis of the deposited data

How the results depend on the processing

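None of the 6 counts of called members left a 1.5-fold band around its value under the 14 alternatives run for each. In ATG7 KO against control, 19 to 22 members were higher and 11 to 15 lower. In ATG7/SQSTM1 KO against control, 5 to 7 were higher and 9 to 13 lower, and against ATG7 KO 9 to 14 were higher and 22 to 26 lower. With the replicate block the counts were 21, 13, 5, 12, 11 and 25 in that order. Same-numbered libraries did not deviate together (correlations of -0.061 to 0.023, and 2 of 18 best matches with the own number), which gave no sign of pairing by number. A shared culture or day that moved few genes could be missed by this check. Over all genes the block moved the calls from 10688, 7281 and 11395 to 10564, 7137 and 11262. The 11 interferon-induced members had 9 to 11 rises in ATG7 KO and 9 to 11 falls between the knockouts, and the 7 neural members 4 to 6 falls and 4 to 5 rises. The neural falls in ATG7/SQSTM1 KO went from 2 to 1 against control and from 1 to 0 against ATG7 KO, in 6 of 14 alternatives each. Among named members the replicate block ended 3 calls against control, TRIM54 in ATG7 KO (0.60, edgeR adjusted p 0.0633) and TRIM59 and TRIM69 in ATG7/SQSTM1 KO (0.55 and -0.21, adjusted p 0.0739 and 0.0513). Library totals in place of TMM moved the median of all genes by at most 0.042 on the log2 scale.

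Of 135 changes of named members 90 were called, 70 of these in every alternative and 20 lost in at least 1, and 0 of the 90 changed sign. This tally leaves out TRIM11, TRIM73 and TRIM74, which are named above. It takes in TRIM4, TRIM8 and TRIM62, which are not described above. Of the uncalled changes, 12 were called in at least 1 alternative. A change of sign occurred for 14 uncalled changes near 0, with the following ranges when 1 library was left out. In ATG7 KO against control these were -0.069 to 0.051 for TRIM16, -0.025 to 0.013 for TRIM27, -0.136 to 0.096 for TRIM52 and -1.15 to 0.349 for TRIM71, which was 0.005 with RLE size factors and 0.004 with no low-count filter. In ATG7/SQSTM1 KO against control they were -0.013 to 0.025 for TRIM25, -0.068 to 0.065 for TRIM3, -0.847 to 0.302 for TRIM34, -0.013 to 0.151 for TRIM36, -0.036 to 0.009 for TRIM47, -0.174 to 0.004 for TRIM5 and -0.559 to 0.006 for TRIM52. Between the knockouts they were -0.177 to 0.497 for TRIM17, -0.534 to 0.031 for TRIM52 and -0.229 to 1.278 for TRIM71. The cause was not tested, beyond 1 library fewer in each fit. The coding length from RefSeq proteins was not run, since no protein table was used here, and coding exons took its place.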

Other observations

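TRIM52, named after its values were seen, had 22.3, 11.3 and 12 CPM in ATG7/SQSTM1 KO, and 1868 bases of its exons overlap a gene on the other strand. Without ATG7/SQSTM1 KO replicate 1 its change against control was -0.559 (edgeR adjusted p 0.000522), beside -0.16 with it. The readthrough gene TRIM39-RPP21 had 82 counts in ATG7 KO replicate 3, 68 in ATG7/SQSTM1 KO replicate 1 and 0 in the other libraries. TRIM39 itself had log2 changes of 0.08 in ATG7 KO and -0.27 in ATG7/SQSTM1 KO against control (edgeR adjusted p 0.359 and 0.008), the second lost without control replicate 1 (-0.21) or ATG7/SQSTM1 KO replicate 1 (-0.21).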
